A study of Cucumis sativus with 11 samples.

Results

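The genes described here are those whose transcripts were less abundant in cucumber leaves given salt, silicon or both than in untreated leaves. They number 139 of 20165 genes listed, 0.689%. A gene was a member if, on log2(RPKM + 1), its lowest control library lay above its highest library of any treated group, if each of the 3 treated group means lay at least 0.7 below the control mean, if the salt plus silicon mean lay within 0.5 of the silicon mean, and if it exceeded the salt mean by less than 0.5. RPKM is the number of reads of a gene relative to its length and to the mapped reads of the library, and 1 was added before the logarithm. The members were thus chosen by the RPKM values of all 11 libraries, so all differences between groups are given as a description and no p-value is given for a member.

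Leaf RNA of the cultivar JinYou 1 of Cucumis sativus was sequenced in 4 groups of plants in nutrient solution. The salt plus silicon group received 75 mM sodium chloride and 0.3 mM silicon (3 libraries), the salt group 75 mM sodium chloride alone (3 libraries), the silicon group 0.3 mM silicon alone (2 libraries), and the control group neither (3 libraries). Silicon was supplied as sodium silicate, so that it brought sodium as well, and the pH of all solutions was set to a common value with acid or potassium hydroxide. Recently expanded leaves were taken after 3 days, and each library held 3 mixed leaves. The comparison asks which transcripts are lowered alike by salt, by silicon and by their combination.

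Sodium chloride in the root medium lowers the water potential around the root and brings sodium and chloride into the leaf, and leaves commonly respond with slower growth, closed stomata and changed ion transport. Silicon is taken up by roots as silicic acid, moves with the water stream and is laid down as silica in leaf cell walls. Cucumber is among the dicotyledons that accumulate it, and silicon feeding is known to lessen salt injury in this and other crops. Genes were listed by ID, with no names beside them. The RefSeq table of the assembly Cucumber_9930_V3, with 23999 genes, held 0 of these IDs. The members are therefore called by their IDs, their functions and sequences are not given, and leaf marker genes could not be looked up. In bulk leaf RNA, fewer cells of a type and less RNA per cell cannot be told apart.

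The libraries were alike in estimated depth, between 0.884 and 1.15 of control 1, by a method that could not have shown a large difference, and the absolute depth is unknown. Between 1711 and 2397 genes were listed at 0 in a library. The median difference of the 17408 tested genes, those that reached 1 RPKM in 2 libraries or more, was 0.14 for salt plus silicon, 0.11 for salt and 0.18 for silicon, each minus control on log2(RPKM + 1). The members thus lay below control while the middle of all genes lay slightly above it. Relative to these medians, the members' median difference was -1.06 with salt plus silicon, -1.28 with salt and -1.14 with silicon. Median-of-ratios scaling, which brought the medians of all tested genes to between -0.02 and 0.01, left these relative differences nearly as they were, as it must, since it shifts all genes of a library alike.

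Across the 139 members, the median RPKM of a library was 43.8, 42.4 and 33.6 with salt plus silicon, 28.4, 36.0 and 35.5 with salt, 31.0 and 51.2 with silicon, and 74.6, 81.7 and 80.2 in control. By these medians the control libraries stood close together, and the pair of silicon libraries lay farthest apart. Their place above every treated library is set by the rule for each control library. On log2(RPKM + 1), the median of members minus their control mean was -0.20, 0.06 and 0.13 in control 1, 2 and 3. The group means of these medians were 39.9 ± 5.54 RPKM with salt plus silicon (SD, n = 3), 33.3 ± 4.22 with salt (n = 3), 41.1 ± 14.3 with silicon (n = 2) and 78.8 ± 3.73 in control (n = 3). The members together held 2.57% ± 0.271 of the summed RPKM with salt plus silicon, 2.61% ± 0.390 with salt, 2.38% ± 0.526 with silicon and 4.55% ± 0.676 in control. The median difference from control was -0.93 with salt plus silicon, -1.17 with salt and -0.96 with silicon on log2(RPKM + 1). These 3 values share their control libraries. In RPKM, the median member stood at 49.1% of its control mean with salt plus silicon, 42.7% with salt and 50.2% with silicon.

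**Figure D1:**
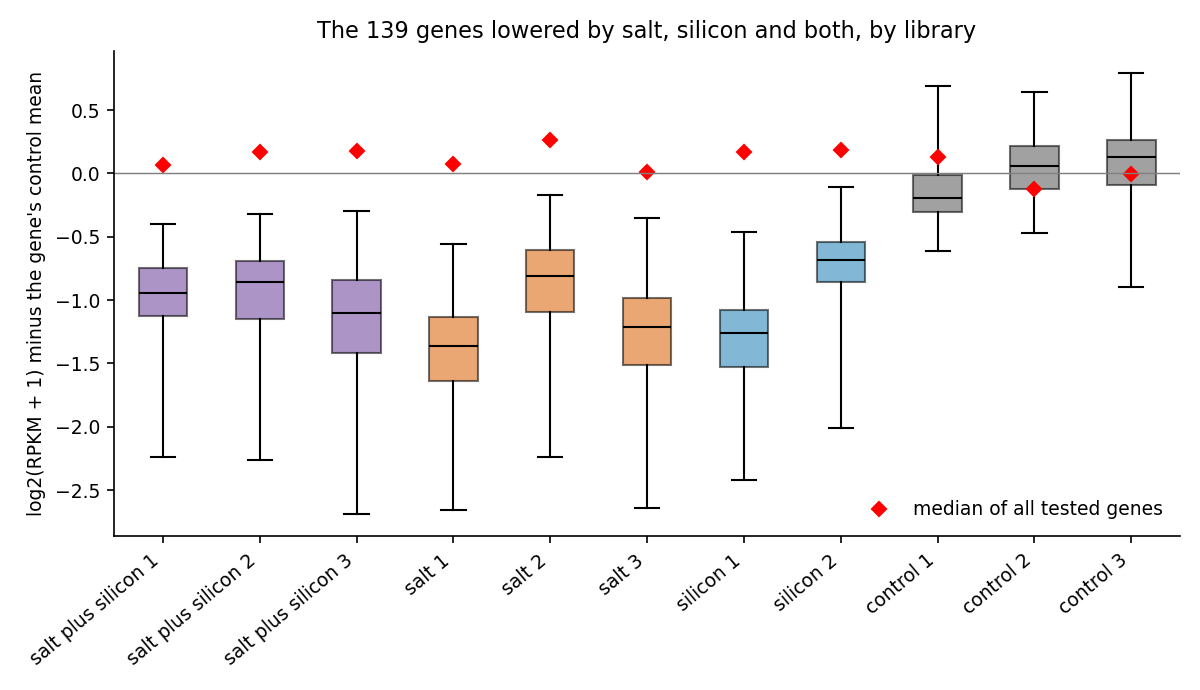
Values of the 139 members by library, as log2(RPKM + 1) minus each gene's control mean; boxes span the quartiles, lines mark medians, whiskers reach the lowest and highest member, and red diamonds mark the median of all 17408 tested genes. Member medians lie between -1.36 (salt 1) and -0.68 (silicon 2) in treated libraries, while the diamonds lie at or above 0 in all of them.

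A group mean lower by 1 or more on the log2 scale, which is 2-fold, was found in 59 members with salt plus silicon, where 4.76% of all tested genes were that much lower. It was found in 100 members with salt (6.19% of all tested genes) and in 60 with silicon (2.69%). In 35 members it held in all 3 treated groups, for which the share of all tested genes was not computed. Nothing is read from these counts beside the background, since the rule asked for a lower mean.

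The members set lowest against control in all 3 treated groups at once were ranked by the smallest of their 3 differences. Csa4G370550, the leading one, stood at 0.477, 0.219 and 0.386 RPKM with salt plus silicon, 0.669, 0.751 and 0.633 with salt, 1.05 and 0.449 with silicon, and 6.76, 3.98 and 4.18 in control. All of its treated libraries lay far under the lowest control, and its differences from control were -2.11, -1.80 and -1.76 with salt plus silicon, salt and silicon. It was also the member with the widest distance between lowest control and highest treated library, 1.28 on the log2 scale, and the one member whose salt plus silicon libraries all lay below its salt libraries.

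Csa1G467730 was listed at 0 in all 3 salt libraries, in 2 of 3 salt plus silicon libraries and in 1 of 2 silicon libraries. Its remaining treated values were 1.01 RPKM with salt plus silicon and 1.30 RPKM with silicon, and its control libraries held 6.60, 2.84 and 2.60 RPKM. An exact 0 may be a failed estimate, so no fold is given for it. Csa1G467730 did not meet the rule either when 0.1 instead of 1 was added before the logarithm. Csa3G457670 was at 2.75, 1.67 and 1.61 RPKM with salt plus silicon, 0.988, 4.32 and 1.33 with salt, 1.22 and 2.44 with silicon, and 4.998, 7.65 and 13.6 in control. Its salt 2 library came near its lowest control, so that the groups were only narrowly apart.

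Csa4G124910 was the most abundant of the leading members. It had 309.6, 229 and 232 RPKM with salt plus silicon, 273, 182 and 245 with salt, 232 and 327 with silicon, and 915, 1026 and 589.6 in control. Its treated means were 30.4%, 27.7% and 33.1% of the control mean with salt plus silicon, salt and silicon. The treated libraries were alike across groups, and the highest of them lay 0.85 under the lowest control on the log2 scale.

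Csa2G258100 was at 155, 159 and 82.5 RPKM with salt plus silicon, 135, 115 and 108 with salt, 102 and 261 with silicon, and 327, 582 and 575 in control. Silicon 2 was its highest treated library. Csa5G608370 was at 20.03, 20.5 and 18.6 RPKM with salt plus silicon, 11.03, 26.9 and 12.0 with salt, 19.7 and 32.2 with silicon, and 71.8, 81.7 and 71.3 in control, where the SD was 5.85 RPKM (n = 3). Its difference was larger with salt, -2.21, than with salt plus silicon, -1.87, or silicon, -1.53, but salt 2 lay above all of its salt plus silicon libraries.

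Csa6G042460 had nearly the same mean in all treated groups. Its RPKM averaged 18.8 ± 7.43 with salt plus silicon (SD, n = 3), 18.2 ± 3.94 with salt (n = 3), 18.3 ± 8.04 with silicon (n = 2) and 51.8 ± 10.1 in control (n = 3). Csa7G008430 averaged 48.8 ± 4.13 RPKM with salt plus silicon, 40.4 ± 10.5 with salt, 63.6 ± 6.62 with silicon and 182 ± 62.9 in control. Both of its silicon libraries, at 68.2 and 58.9 RPKM, lay above its highest salt library at 50.9 RPKM.

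**Figure D2:**
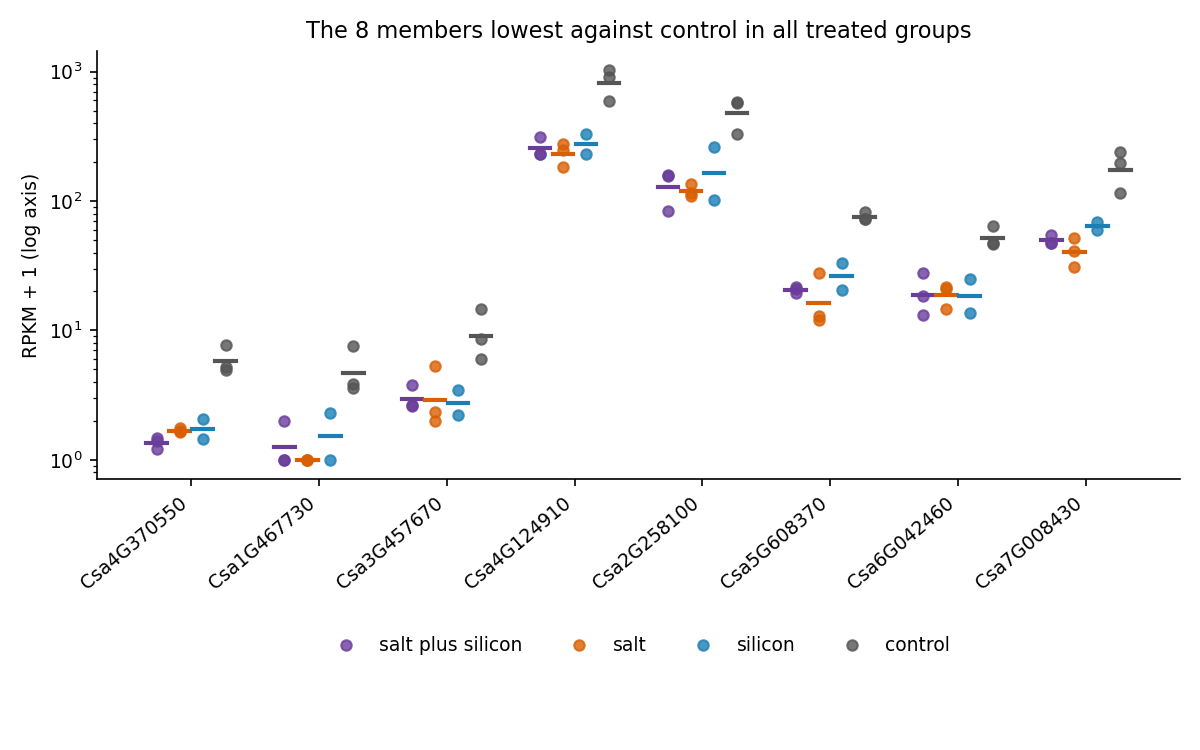
RPKM + 1 on a log axis in every library of the 8 members lowest against control in all treated groups; each point is 1 library and each bar the group mean on the log scale, with points at 1 standing for genes listed at 0. In each gene the 3 control points lie above the 8 treated points, narrowly for Csa3G457670 and widely for Csa4G370550 and Csa5G608370.

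The most abundant members, named next, showed smaller differences than the leading members above, though not always smaller than the median member. Csa6G522690, the member with the highest control mean, had 4521, 5016 and 3186 RPKM with salt plus silicon, 4629.9, 6259 and 5308 with salt, 4466 and 4828 with silicon, and 7135, 10095 and 10050.5 in control. Its salt mean was 59.4% of control and its salt plus silicon mean 46.6%, and it was among the 3 members whose salt plus silicon mean lay farthest below the salt mean, by 0.36 on the log2 scale. The salt plus silicon and salt libraries overlapped.

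Csa6G439930 averaged 2290.3 ± 319 RPKM with salt plus silicon (SD, n = 3), 2459.9 ± 495 with salt (n = 3), 2324 ± 306 with silicon (n = 2) and 4319.8 ± 796 in control (n = 3). Csa2G010330 averaged 2369 ± 288, 2377 ± 239 and 2384 ± 232 RPKM with salt plus silicon, salt and silicon, against 4287 ± 809 in control. Its 3 treated means were within 0.02 of each other on the log2 scale. Csa3G119840 averaged 1361 ± 219.8 RPKM with salt plus silicon, 1514 ± 389 with salt, 1259 ± 348 with silicon and 2501 ± 337 in control.

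The members were spread over a wide range of levels. Their control means ran from 1.39 to 9093 RPKM with a median of 76.9 RPKM, where the median of all tested genes was 10.8 RPKM. In control, 24 members were under 10 RPKM, 51 were from 10 to under 100, 54 from 100 to under 1000, and 10 at 1000 or more. Of all tested genes, 7.82% were from 100 to under 1000 RPKM and 0.707% at 1000 or more, against 38.8% and 7.19% of the members. The rule is on a log2(RPKM + 1) scale, which shrinks the differences of low genes, so it selects by level as well.

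As a percent of control RPKM, the treated means varied with level. In the 24 members under 10 RPKM, the median treated mean was 35.4% of control with salt plus silicon, 27.9% with salt and 43.5% with silicon. In the 10 members at 1000 RPKM or more it was 54.7%, 56.2% and 53.4% with salt plus silicon, salt and silicon. On log2(RPKM + 1) the median differences under 10 RPKM were -0.97, -1.23 and -0.86 in that order. At 1000 RPKM or more they were -0.86, -0.83 and -0.90, so with silicon the difference was not smaller at the high level. A gene of low control level had to stand at a smaller share of it to reach 0.7 on this scale. All 139 members passed the filter of 1 RPKM in 2 libraries, and 5 of them passed through control libraries alone.

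Zeros were few. In 5 members some library was listed at 0, and in no member a control library. Apart from Csa1G467730, the member listed at 0 in a whole group was Csa5G174570. It was listed at 0 in all salt plus silicon and salt libraries and in silicon 1, at 0.266 RPKM in silicon 2, and at 1.97, 2.56 and 0.283 RPKM in control. Its membership rests on a control 3 value barely above silicon 2.

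Among the treated groups, the salt mean was the lowest in 91 members, the silicon mean in 33 and the salt plus silicon mean in 14, with 1 tie at 0 between salt plus silicon and salt. The salt plus silicon mean lay above the salt mean in 114 members and below it in 24, with a median difference of 0.17 on the log2 scale. That difference ran from -0.81 to 0.50 and was capped at 0.5 by the rule, which set no lower bound. It was above in 106 members with median-of-ratios scaling and in 107 with quantile normalization, and between 93 and 122 with any 1 library left out. In 4 members all salt plus silicon libraries lay above all salt libraries, where 3.87% of tested genes did so, and in 1 member all lay below, where 2.48% did. The cap of the rule limits separation upward, so nothing is read from these counts beside the background.

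The silicon mean lay above the salt mean in 98 members and below it in 41, a median difference of 0.17. This order depended on the silicon libraries and on scaling. The number above was 128 without silicon 1 and 52 without silicon 2, and it was 65 after quantile normalization, where the median turned to -0.03. The count of members whose mean was lowest in silicon, 33 of 139, changed to 52 without salt 1, 18 without salt 2, 7 without silicon 1, 83 without silicon 2 and 71 after quantile normalization. The count lowest in salt was 91, and 49 without silicon 2 and 58 after quantile normalization. The count lowest in salt plus silicon, 15 with the tie, was 24 when salt plus silicon 1 was left out, 31 when salt plus silicon 2 was, and 7 when silicon 2 was. In 14 members both silicon libraries lay above all salt libraries, where 22.8% of tested genes did so, and in 0 members both lay below, where 16.6% did. The rule limits how far the silicon mean can exceed the salt mean. The silicon libraries also lay farther apart in members than in all tested genes, by the median SD. Nothing is therefore read from these counts beside the background.

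The 3 members with the salt plus silicon mean farthest above the salt mean lay near the limit of the rule. Csa7G333400 was at 62.1, 42.4 and 50.6 RPKM with salt plus silicon, 36.9, 32.7 and 38.4 with salt, 48.8 and 59.5 with silicon, and 99.2, 120.5 and 83.4 in control. Csa3G901130 was at 100.9, 68.0 and 88.7 RPKM with salt plus silicon, 67.5, 50.5 and 65.2 with salt, 85.5 and 102.5 with silicon, and 238, 242 and 141 in control. In both genes the salt libraries lay lowest without overlap, and the salt plus silicon libraries overlapped the silicon libraries. Csa2G404880, at 5.36, 9.20 and 5.41 RPKM with salt plus silicon and 3.22, 9.51 and 2.46 with salt, did not separate those groups.

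At the other end, Csa2G258630 had the salt plus silicon mean 0.81 below the salt mean. It was at 5.58, 5.49 and 2.29 RPKM with salt plus silicon, 13.1, 8.93 and 4.35 with salt, 2.96 and 12.1 with silicon, and 16.1, 23.6 and 21.8 in control. The salt plus silicon and salt libraries overlapped, and the pair of silicon libraries spanned most of the treated range. It was the single member with a difference under -0.5 between these means, since the others lay between -0.36 and 0.50.

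Salt plus silicon means differed from silicon means by -0.49 to 0.46 within the bounds of the rule, with 73 members above and 66 below. The number above was 14 without silicon 1, 106 without silicon 2 and 100 with quantile normalization. Csa3G734100 averaged 304 ± 45.6 RPKM with salt plus silicon (SD, n = 3), 309.7 ± 133 with salt (n = 3), 222 ± 51.4 with silicon (n = 2) and 528 ± 117 in control (n = 3). Csa3G829200 averaged 106 ± 11.7 RPKM with salt plus silicon and 89.7 ± 63.7 with silicon, whose libraries at 44.6 and 135 RPKM lay below and above all its other treated libraries. Csa4G416430 averaged 52.6 ± 23.3 RPKM with salt plus silicon and 69.0 ± 11.5 with silicon, and Csa5G155580 averaged 1.11 ± 0.232 and 1.97 ± 0.420 RPKM with salt plus silicon and with silicon. In Csa5G155580 alone of these 4 did silicon lie above salt plus silicon in every library.

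**Figure D3:**
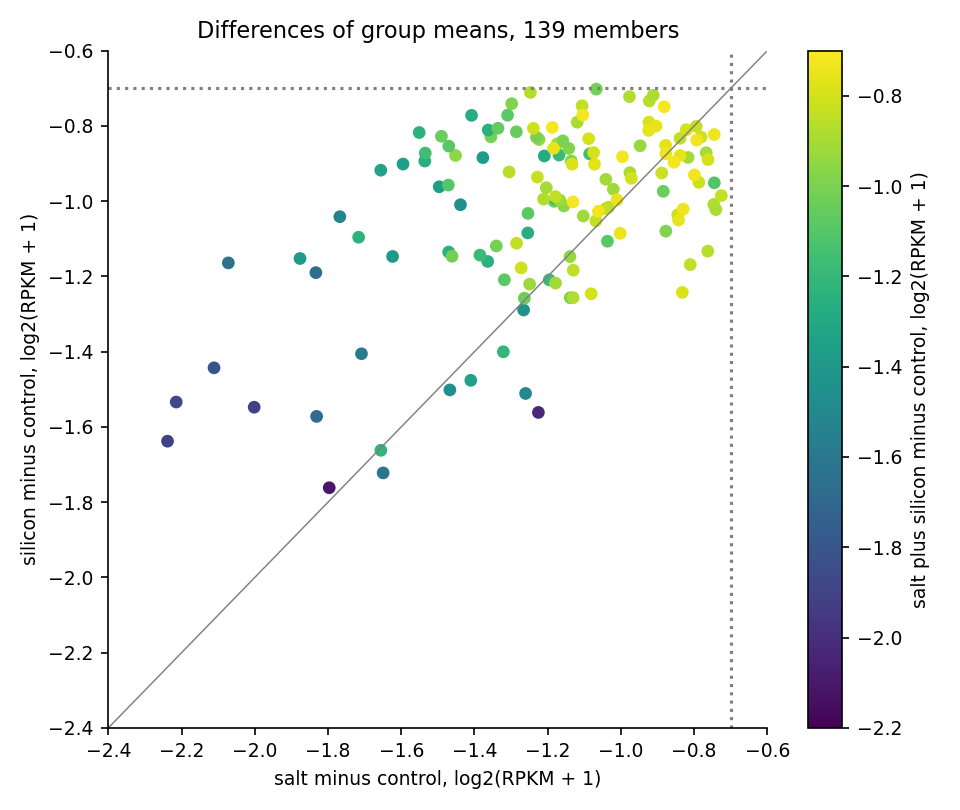
Group mean differences from control of the 139 members on log2(RPKM + 1): salt on the horizontal axis, silicon on the vertical axis, and salt plus silicon as colour, with the line of equal differences and dotted lines at the rule's limit of -0.7. Of the 139 points, 98 lie above the line, where the salt mean is lower than the silicon mean, and the 3 differences share their control libraries.

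Between the silicon libraries, most members differed in the same direction. Silicon 2 was above silicon 1 in 126 of the 139 members, by a median of 0.61 on the log2 scale, whereas it was above in 52.3% of all tested genes, by a median of 0.02. With median-of-ratios scaling the number was 125, and with quantile normalization 123. The rule treats these 2 libraries alike, but it used the values of both to choose the members. Without silicon 1, 63 genes met the rule, and without silicon 2, 143 did. Whether the choice of members gave this order, or the wider spread between the 2 libraries, was not tested. The median SD between the silicon libraries was 0.44 on the log2 scale in members, 0.20 in all tested genes and 0.19 in the 1485 tested genes at 100 RPKM or more in control. No such excess was seen with salt plus silicon, where it was 0.23 in members and 0.23 in all tested genes, or in control, where it was 0.30 and 0.32, and with salt it was 0.37 in members and 0.30 in all tested genes.

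The salt libraries showed a smaller shift of the same kind. Salt 2 was above salt 1 in 119 members and above salt 3 in 104, by medians of 0.52 and 0.38 on the log2 scale. Over all tested genes salt 2 was above salt 1 in 61.5% and above salt 3 in 67.3%, by medians of 0.16 and 0.22, so that part of the shift was common to all genes. After median-of-ratios scaling these numbers were 107 and 81. Silicon 2 was the highest treated library in 72 members and salt 2 in 24, while the other 6 treated libraries together gave the highest value in the remaining 43. Control 1 was the lowest control library in 83 members, control 3 in 31 and control 2 in 25. Silicon 2 and control 1, counted separately, were thus each the library most often at the boundary of the rule on its side. How often both held in the same gene was not counted.

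In a limma fit of all 4 groups, with Benjamini-Hochberg adjustment over 17408 genes and a threshold of 0.05, 45 members were called lower with salt plus silicon, where 1.53% of all tested genes were. With salt 90 members were called lower, where 3.00% were, and with silicon 39, where 0.977% were. The rule used these contrasts, so nothing is read from the counts. After median-of-ratios scaling they were 72, 112 and 69 members, and the calls over all genes turned to 447 lower and 471 higher with salt plus silicon, against 266 and 836 as deposited. With salt they turned to 840 lower and 737 higher, against 523 and 1064 as deposited, and with silicon to 375 and 1033, against 170 and 1459.

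These member counts depended on single libraries, and so did the calls over all tested genes. For salt plus silicon the 45 calls were 11, 14 and 5 without salt plus silicon 1, 2 and 3, 5 without control 2 and 20 without control 3. Over all tested genes the 266 lower calls were then 76, 113, 56, 79 and 192. For salt the 90 calls were 29 without salt 1, 28 without salt 3, 24 without control 2 and 43 without control 3. The 523 lower calls over all tested genes were then 263, 186, 175 and 418. For silicon the 39 calls were 19, 22 and 22 without salt plus silicon 1, 2 and 3, 4 without control 2 and 11 without control 3. There the 170 lower calls over all tested genes were 81, 95, 107, 23 and 53. Without silicon 1, which leaves 1 silicon library, the members' median difference from control was -0.68 on log2(RPKM + 1), against -0.96 with both silicon libraries. Leaving out a group's library lowers the number of samples behind the comparison as well.

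How sharply the rule bounds the module was read from the genes at its limits. The lowest control lay above all 8 treated libraries in 539 genes, 2.67% of those listed, of which 210 also had all 3 means lower by 0.7 or more. The 2 members just inside that limit were Csa6G076840, with differences of -1.02 with salt plus silicon, -1.07 with salt and -0.70 with silicon, and Csa6G509030, with -0.87, -1.25 and -0.71 for salt plus silicon, salt and silicon. Both were low genes, at 2.92 ± 1.13 and 2.66 ± 0.523 RPKM in control (SD, n = 3). Just outside lay Csa6G093090, whose salt plus silicon difference was -0.70 after rounding, and Csa3G748170, whose salt difference was -0.70 after rounding.

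The distance from the lowest control to the highest treated library ran from 0.01 to 1.28 in members, with a median of 0.29 on the log2 scale. It was under 0.1 in 22 members and 0.5 or more in 21. The narrowest were Csa7G000520, with silicon 2 at 49.99 RPKM under control 3 at 50.3 RPKM, and Csa1G522540, with salt plus silicon 2 at 285 RPKM under control 1 at 287 RPKM. A further 124 genes met all conditions but that distance. The nearest of them, Csa1G004170 and Csa1G171060, were listed at 0 in all libraries except 1 control library each.

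The counterpart in the other direction was larger as deposited. By the mirrored rule, with all treated libraries above all control libraries and the limits turned round, 223 genes were raised by salt, silicon and both, against the 139 lowered. With median-of-ratios scaling 305 genes were lowered and 105 raised, and with quantile normalization 236 were lowered and 83 raised, so the balance between the directions turned with scaling. Of the 139 members, 138 still met the rule after median-of-ratios scaling, which gave 45.2% of the longer list, and 115 after quantile normalization, 48.7% of that list.

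Membership depended on single libraries too. Without silicon 1, which is the lower of the silicon pair, 63 genes met the rule, 55 of them members. Without control 1, 230 genes did, with 131 members among them. Without any other library the number lay between 125 and 183. Of the 139 members, 20 met the rule with each of the 11 libraries left out in turn, and 19 of these also under both other scalings and with a pseudocount of 0.1. Csa3G457670, Csa4G124910, Csa6G042460 and Csa7G008430 of the leading members were among the 19. Csa5G174570 was the 1 of the 20 that did not meet the rule with the smaller pseudocount.

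**Figure D4:**
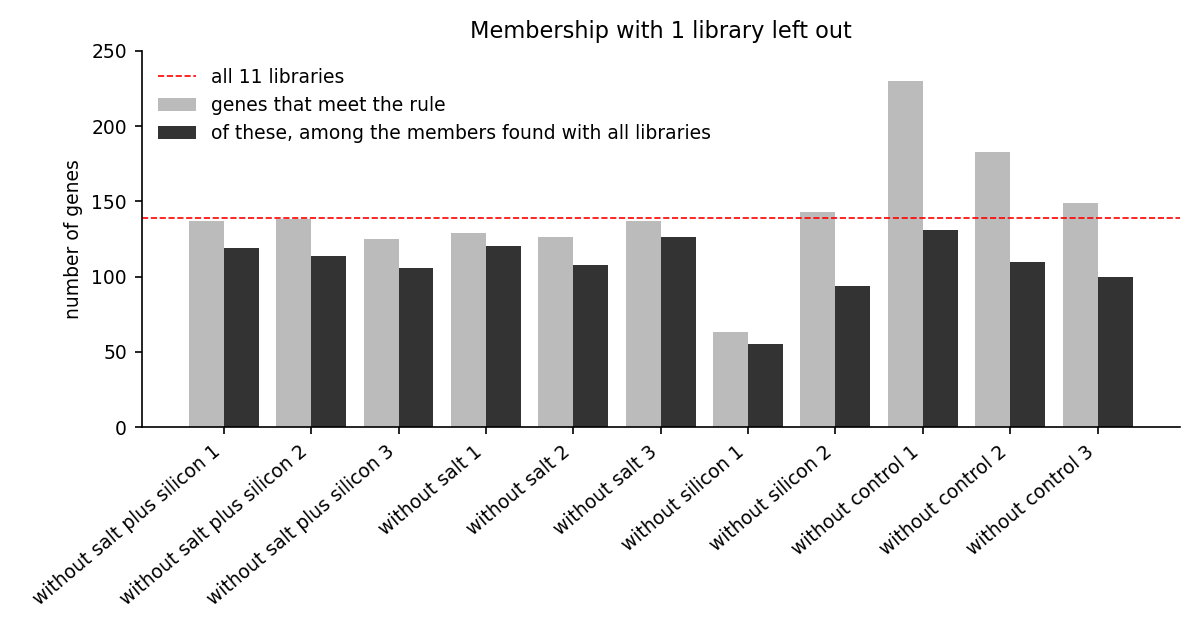
Number of genes that met the rule with each library left out in turn (grey bars) and how many of these were among the 139 members (black bars); the dashed line marks the 139 found with all 11 libraries. The bars are lowest without silicon 1 (63 and 55), and the grey bar is highest without control 1 (230).

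Members were found under every character that follows Csa in the listed IDs. By the digit after Csa in the ID, the share of listed genes that were members ran from 0.439% for 2 to 0.871% for 5, with 35 members under 3 and 11 under 2. In 6 pairs, 2 members stood next to each other in the list of IDs, 12 genes in all, and 12 of the 223 genes of the mirrored rule did so too. Another member lay within 10 listed IDs of 20.1% of members, against 30.5% by the mirrored rule. The values for genes drawn at random from the list were not computed. Whether members lie closer together than such genes was therefore not tested. Positions in the genome were not looked up, since no annotation of these IDs was used.

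Of the neighbouring IDs, Csa2G257100 and Csa2G258100 were both 2-fold or more lower in all treated groups. Csa4G006170 and Csa4G006180 differed in level, with 78.1 ± 18.0 and 3.12 ± 0.717 RPKM with salt plus silicon, 76.1 ± 11.9 and 3.47 ± 2.18 with salt, 86.5 ± 3.68 and 4.23 ± 1.78 with silicon, and 143 ± 9.46 and 8.36 ± 1.10 in control. The libraries did not keep strand, so reads of genes that overlap cannot be told apart. Neighbours were chosen for mention after their values had been seen.

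Members whose IDs shared all but the last 4 digits formed 25 groups with 68 genes. The largest group, of 5, held Csa4G000620, Csa4G000650, Csa4G003670, Csa4G006170 and Csa4G006180, whose control means ran from 1.55 to 1019 RPKM. Csa1G042130, Csa1G042740, Csa1G045560 and Csa1G045950 formed a group of alike level, at 99.0 ± 14.2, 192 ± 27.1, 198 ± 62.7 and 104 ± 25.2 RPKM in control. Their salt means were 38.5%, 39.5%, 33.9% and 28.4% of those. The remaining group named here held Csa5G174570, Csa5G175170, Csa5G175970 and Csa5G176000. In Csa5G175170 the control libraries were nearly equal, at 96.7, 94.3 and 96.0 RPKM, against 66.1, 63.4 and 41.4 with salt plus silicon, 49.0, 41.2 and 45.1 with salt and 38.6 and 66.6 with silicon.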

How the data were processed

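Leaf RNA was measured in 11 libraries of 4 groups. The authors deposited 1 RPKM value per gene and library, a unit taken from the names of the deposited files. The libraries were made from fragmented poly(A) RNA and hold no strand information, per the labels' protocols. TopHat2 was among the tools, per the submitters' processing notes; its settings, as well as the counting program, build and annotation, were not given in the sources used here. Without counts, neither counting intervals nor detection floors could be given, and a count test was not used. Labels call the samples biological replicates, each of 3 leaves.

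Values were used as deposited, on log2(RPKM + 1). The membership rule was applied to all 20165 genes. For tests, R 4.3.3 and limma 3.58.1 fitted the group means with a trend of variance on the mean, two-sided, over genes that reached 1 RPKM in 2 libraries or more. The fit was tested on simulated data with changes in the salt group alone, larger than the members' differences, so it does not cover effects of their size. Python 3.11.15 with numpy 2.4.6 and pandas 2.3.3 handled the tables, and matplotlib 3.10.9 the plots. Relative depth came from ratios of values of genes under 0.2 RPKM to control 1. The members and lists were chosen with earlier results of these data known. Genes were named by rank of the smallest difference from control, control level, extremes between treated groups, nearness to the limits of the rule, shared starts of IDs and zeros. Other pseudocounts, filters, scalings, a replicate block, fits of the compared groups and leaving out each library were tried. Lists by product name could not be used without gene names.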

Additional observations from a re-analysis of the deposited data

Results flagged for a closer look

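In 4 of the 139 members, Csa7G333400, Csa3G901130, Csa5G603950 and Csa6G079780, every salt plus silicon library lay above every salt library, while every silicon library lay below every control library. Salt plus silicon libraries lay above all salt libraries in 3.87% of all tested genes. The rule capped this difference at 0.5 in members, so the count cannot show whether the members stand out in this. On log2(RPKM + 1), the salt plus silicon minus salt difference was 0.50 in Csa7G333400, 0.48 in Csa3G901130, 0.38 in Csa5G603950 and 0.25 in Csa6G079780. The silicon minus control difference was -0.88, -1.10, -0.96 and -1.26 in the same genes. The rule fixed the direction of silicon minus control for all members, and the difference between the effects was not tested.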

How the results depend on the processing

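The number of genes that met the rule, 139, was 305 after median-of-ratios scaling, 236 after quantile normalization and 35 with a least difference of 1, and ran from 63 to 230 with 1 library left out. Calls of members as lower with salt plus silicon (45) were 72 after median-of-ratios scaling and 19 when the compared groups were fitted by themselves, and ran from 5 to 66 with 1 library left out. With salt (90) they were 14 in that fit and ran from 24 to 108. With silicon (39) they were 69 and 62 after median-of-ratios scaling and quantile normalization. They were 0 in the limma fit of the compared groups by themselves, and ran from 4 to 52 with 1 library of another group left out. With a replicate block the member calls were 35, 84 and 26 for salt plus silicon, salt and silicon. Lower calls over all tested genes, in the same order, were 212, 467 and 83 with the block. In the fits of the compared groups by themselves they were 138, 91 and 9. Same-numbered libraries deviated together with r between -0.20 and 0.16, over 0.1 in 5 of 15 pairs. Deviations from the mean of a small group depend on each other, so these values cannot decide whether the numbers pair the samples. Fits with a lone silicon library assume that it varies like the other groups, and their silicon calls are not given. For 37 named members, 33 of 1554 recomputed differences from control moved by more than the SD between replicates. A difference cannot change when a library of another treated group is left out, so part of the 1554 could not move. None of the 1554 changed sign, which the rule itself fixes with a library left out or the smaller pseudocount. Depth is unknown, which limits what can be said of members under 1 RPKM. The cause of these changes was not tested.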
